A study of Homo sapiens with 12 samples.

Results

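The epithelial surface genes SPINT1, SPINT2, EPCAM and LSR were all lower in A549 cells given TGF-β1 than in control cells, and all 4 were higher when acetate was added to TGF-β1. The protease gene ST14 (matriptase) showed no detectable change in any comparison, and the protease gene PRSS8 (prostasin) was higher with acetate, by 3.29-fold against TGF-β1 alone and 4.48-fold against control in mean CPM. These 6 genes, chosen by symbol as the epithelial surface proteases, their Kunitz inhibitors and 2 surface partners, are 6 of the 25433 genes in the deposited tables. All 6 passed the filter on low counts in every comparison. In the 2 comparisons that involve the TGF-β1 group, SPINT1 did so only through its higher group.

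A549 is an established human lung adenocarcinoma line with alveolar epithelial features, here grown in F-12K medium with fetal bovine serum. The 12 libraries form 3 groups of 4: TGF-β1 plus acetate (2 days of 10 ng/mL TGF-β1 and 40 mM sodium acetate), TGF-β1 (2 days of 10 ng/mL alone) and control (neither agent named in the group label). The design asks what TGF-β1 does to the transcripts of these cells and what acetate does in its presence. No group received acetate without TGF-β1, so the effect of acetate alone was not measured, and no sodium control at 40 mM is named. The labels do not tell whether replicate libraries stem from independent cultures; p-values therefore reflect the spread between libraries, which may be technical. Total counts ran from 34698057 to 41575904 in the acetate group, 37202599 to 53936023 in the TGF-β1 group and 38400896 to 53055990 in the control group. Libraries are named by their column codes (S22 to S25 acetate, S15 to S18 TGF-β1, S1 to S4 control), which were placed in groups by the tables that hold them, since no label names them.

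Matriptase and prostasin are serine proteases held at the epithelial surface, the first by a membrane-spanning segment and the second by a lipid anchor, and each can bring about activation of the other. SPINT1 and SPINT2 encode the membrane-bound Kunitz inhibitors HAI-1 and HAI-2, which bind these proteases and limit their activity at cell contacts. EPCAM is an adhesion protein of epithelial membranes that matriptase can cleave, and inherited loss of SPINT2 or of EPCAM causes tufting enteropathy of the intestine. LSR, also called angulin-1, marks the corners where 3 epithelial cells meet and recruits tricellulin there. TGF-β1 drives A549 cells towards a mesenchymal phenotype, and epithelial surface genes are among those it is known to lower.

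Levels below are CPM (counts scaled to a common library total) with totals adjusted by the trimmed mean of M-values (TMM), and comparisons are log2 fold changes from edgeR's quasi-likelihood test with Benjamini-Hochberg adjustment over all genes tested, called at an adjusted p below 0.05. The response of the whole transcriptome was broad. Of the 22051 genes tested for TGF-β1 against control, 34.1% were called higher and 32.8% lower, and in 61.4% the 2 groups did not overlap. For TGF-β1 plus acetate against TGF-β1 the shares of 22336 genes were 33.3% higher, 30.4% lower and 57.4% without overlap. For TGF-β1 plus acetate against control the shares of 22742 genes were 36.1% higher, 34.4% lower and 64.0% without overlap. Against this background, TGF-β1 left 0 of the 6 genes higher and 4 lower by the edgeR test. ST14 and PRSS8 had unadjusted p-values of 0.14 and 0.091, and neither was called by DESeq2 or limma-voom. Adding acetate left 5 of 6 higher and 0 lower than TGF-β1 alone, with ST14 the exception (unadjusted p = 0.17, edgeR, and not called by DESeq2 or limma-voom). Against control, the acetate group had 4 genes higher (SPINT1, SPINT2, PRSS8, EPCAM) and 1 lower (LSR). The groups overlapped for none of the called members, so 4, 5 and 5 of the 6 genes were without overlap in the 3 comparisons in that order. SPINT1 is counted in each, although in the first 2 comparisons it passed the filter on low counts only through its higher group.

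**Figure D1:**
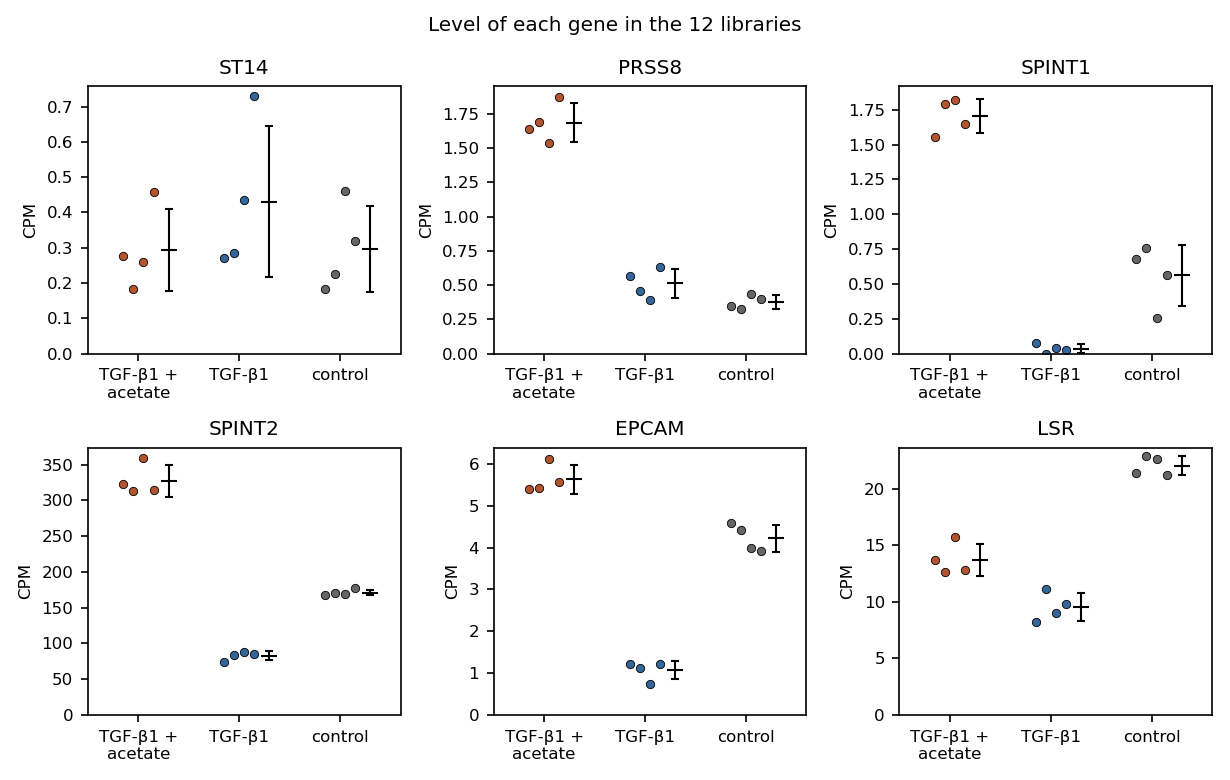
Level of each of the 6 genes in CPM (vertical axis, linear, starting at 0, a different scale in each panel) in the 12 libraries. Each point is a library, and the bar beside each group is its mean with the SD (n = 4). ST14 overlaps between all groups, SPINT1 lies between 0 and 0.0735 CPM with TGF-β1, and LSR is the only one of the 6 highest in control.

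The cell line was checked against lists of epithelial and lung markers. KRT8 and KRT18, keratins of simple epithelia, averaged 2525 and 1840 CPM with acetate, 2237 and 1456 CPM with TGF-β1, and 2250 and 1955 CPM in control. CDH1, the epithelial cadherin, averaged 45.5 CPM with acetate, 1.46 CPM with TGF-β1 and 58.7 CPM in control. KRT19, another keratin of simple epithelia, averaged 58.4 CPM with acetate, 7.01 CPM with TGF-β1 and 36.6 CPM in control. MUC1, a surface mucin, averaged 0.602 CPM with acetate, 0.326 CPM with TGF-β1 and 0.981 CPM in control, and SFTPB, a surfactant protein gene, was at or below 0.307 CPM in the mean of every group. Of the 8 markers, 5 were tested for TGF-β1 against control (0 higher, 4 lower, and KRT8 not passed at an unadjusted p of 0.93 by edgeR), 6 for acetate against TGF-β1 (5 higher, SFTPB not passed) and 6 for acetate against control (3 higher, 2 lower, KRT18 not passed). Values for NKX2-1, the lung lineage factor, were not analysed here. Of 14 markers of fibroblasts, endothelium and immune cells, 7 could be measured, and all 7 were called higher with TGF-β1 than in control, as were all 7 with acetate than in control. For acetate against TGF-β1, 5 were higher, PDGFRB was lower (log2 fold change -1.11, adjusted p = 8.4e-04, edgeR) and TEK at 0.53 did not pass (adjusted p = 0.065, edgeR). Their summed level was 84.6 to 90.1 CPM with acetate, 28.9 to 34.0 CPM with TGF-β1 and 15.3 to 18.1 CPM in control. Of the 7, DCN, TEK and PDGFRB had 5, 24 and 51 counts summed over the control libraries. These 3 met the filter on low counts only through the groups given TGF-β1, so their calls against control are no result by themselves. Values for the endothelial and immune markers PECAM1, CDH5, KDR, PTPRC, CD3E and LYZ were not analysed here. The part of these genes in the results below was not tested. As in any bulk sample, fewer cells with a transcript and less of it in each cell cannot be told apart.

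ST14, on chromosome 11 (130159562 to 130210376, plus strand, hg38; ENSG00000149418.10), was close to the lower limit of what these libraries can measure. It had 10, 7, 11 and 20 counts in the acetate libraries, 11, 10, 22 and 30 counts in the TGF-β1 libraries and 9, 11, 18 and 17 counts in the control libraries. The 3 groups overlapped throughout, and library S18 of the TGF-β1 group was the highest of all 12. Mean levels were 0.294 ± 0.117 CPM with acetate, 0.430 ± 0.214 CPM with TGF-β1 and 0.297 ± 0.122 CPM in control (SD, n = 4 each). The log2 difference was 0.57 for TGF-β1 against control, with a 95% interval of -0.14 to 1.29 and an adjusted p of 0.18 by edgeR. It was -0.53 for acetate against TGF-β1 (-1.25 to 0.19, adjusted p = 0.22 by edgeR) and 0.03 for acetate against control (-0.74 to 0.80, adjusted p = 0.95 by edgeR). These intervals still allow a change of up to about 1.3 in log2, so at this depth a moderate change in matriptase transcript was not detectable. In the authors' deposited table ST14 carried a log2 fold change of 0.548 for TGF-β1 against control, with a p-value of 0.15 and a q-value of 0.048. The authors' q-value lies below their p-value, so ST14 passes 0.05 by that q and does not by the edgeR test.

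PRSS8, on chromosome 16 (31131433 to 31135762, minus strand; ENSG00000052344.15), was higher with acetate than in either other group. Its counts were 59, 65, 65 and 82 in the acetate libraries, 23, 16, 20 and 26 in the TGF-β1 libraries and 17, 16, 17 and 21 in the control libraries. Every acetate library lay above all 8 others, while the TGF-β1 and control libraries overlapped. Levels were 1.64, 1.69, 1.54 and 1.88 CPM with acetate, 0.564, 0.457, 0.395 and 0.633 CPM with TGF-β1, and 0.348, 0.327, 0.434 and 0.395 CPM in control. Prostasin transcript rose by 1.73 (SE 0.187) in log2 with acetate against TGF-β1 (adjusted p = 7.8e-07, edgeR) and by 2.17 (SE 0.187) with acetate against control (adjusted p = 3.7e-09, edgeR). For TGF-β1 against control the difference was 0.45, with a 95% interval of -0.04 to 0.93 and an adjusted p of 0.12 by edgeR. The authors' deposited table gave PRSS8 a log2 fold change of 0.427 there, with a p-value of 0.11 and a q-value of 0.036. Summed over the 4 libraries of each group, 271 counts with acetate and 85 with TGF-β1 gave a level ratio of 3.33 with an exact 95% counting interval of 2.6 to 4.30. An antisense gene, AC009088.3, overlaps PRSS8 by 445 bases and had 20 to 25 counts with acetate, 4 to 9 with TGF-β1 and 2 to 7 in control. The strand setting of the authors' counting is not given in the sources used here, so reads of the pair may not be fully separated.

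SPINT1, which encodes HAI-1, on chromosome 15 (40844018 to 40858207, plus strand; ENSG00000166145.14), showed the widest swing of the 6 genes. It had 56, 69, 77 and 72 counts in the acetate libraries, 3, 0, 2 and 1 in the TGF-β1 libraries and 33, 37, 10 and 30 in the control libraries. The 3 groups stood apart, with TGF-β1 at the bottom, although control library S3 was well below the other control libraries. Mean levels were 1.70 ± 0.125 CPM with acetate, 0.0343 ± 0.0308 CPM with TGF-β1 and 0.563 ± 0.219 CPM in control (SD, n = 4 each). All but 1 of the TGF-β1 libraries lay below the level that 3 counts would give, which ran from 0.0556 to 0.0865 CPM over the libraries. SPINT1 transcript fell by 3.89 (SE 0.522) in log2 with TGF-β1 against control (adjusted p = 5.2e-06, edgeR). It was higher by 5.47 (SE 0.336) with acetate against TGF-β1 (adjusted p = 1.2e-09, edgeR). In each of these 2 comparisons SPINT1 passed the filter on low counts only through its higher group. The 2 calls are therefore no result by themselves, and the counts are the description. From the summed counts, 6 with TGF-β1 and 110 in control, the level ratio was 0.0619 with an exact 95% counting interval of 0.0222 to 0.139. For acetate over TGF-β1, with 274 and 6 counts, the ratio was 47.7 (21.6 to 131), so the size of the acetate difference is known only to within this range. These intervals cover counting error only. The acetate group was also higher than control by 1.57 (SE 0.238) in log2 (adjusted p = 8.2e-06, edgeR), a ratio of 2.95 (2.36 to 3.72) from 274 and 110 counts.

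Promoter windows from RefSeq (GRCh38.p14) were used for SPINT1 and LSR, the 2 of the 6 genes matched in the promoter table used here, from 250 bases before to 50 after each recorded start. SPINT1 has 2 such starts, and its windows are shown because SPINT1 moved most. They were searched on both strands for the E-box CAGGTG, which Snail and ZEB repressors can bind, for the Grainyhead motif AACCGGTT, its own reverse complement, and for the GC box CCGCCC. A match on the opposite strand reads CACCTG for the E-box or GGGCGG for the GC box. Matches are in capitals. The first window, chr15:40843798-40844097 (plus strand), is 77.7% G or C.
SPINT1 first start: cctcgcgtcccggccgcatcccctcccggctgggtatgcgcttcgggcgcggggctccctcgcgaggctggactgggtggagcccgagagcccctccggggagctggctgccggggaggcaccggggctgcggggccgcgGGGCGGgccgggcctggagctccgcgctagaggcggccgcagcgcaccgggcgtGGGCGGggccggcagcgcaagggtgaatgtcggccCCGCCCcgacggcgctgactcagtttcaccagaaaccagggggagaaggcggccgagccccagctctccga
The second window, chr15:40844227-40844526 (plus strand), begins inside the gene and is 69.7% G or C.
SPINT1 second start: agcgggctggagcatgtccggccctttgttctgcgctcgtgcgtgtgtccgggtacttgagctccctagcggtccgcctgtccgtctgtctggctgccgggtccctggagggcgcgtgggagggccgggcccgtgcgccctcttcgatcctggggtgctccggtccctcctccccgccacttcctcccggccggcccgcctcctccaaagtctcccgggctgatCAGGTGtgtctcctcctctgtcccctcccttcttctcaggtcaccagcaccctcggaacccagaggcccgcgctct
The first window held 3 GC boxes, whose first bases lay at -110, -56 and -21 relative to the start, and no E-box. The second held 1 E-box, at -26, and no GC box. Neither held the Grainyhead motif. Over 35116 promoter windows of the same length, 20.6% held the E-box, 45% the GC box and 0.134% the Grainyhead motif, so an E-box or a GC box is common. A match is a description of the letters and does not show that any factor binds.

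SPINT2, which encodes HAI-2, on chromosome 19 (38244035 to 38292614, plus strand; ENSG00000167642.12), was by far the most abundant of the 6. Its levels were 323, 313, 360 and 314 CPM in the acetate libraries, 74.2, 84.4, 88.2 and 85.0 CPM in the TGF-β1 libraries and 168, 171, 169 and 177 CPM in the control libraries. The 3 groups were separated by gaps far wider than the spread inside each. SPINT2 fell by 1.04 (SE 0.0461) in log2 with TGF-β1 against control (adjusted p = 4.5e-12, edgeR). It rose by 1.99 (SE 0.0551) with acetate against TGF-β1 (adjusted p = 1.9e-13, edgeR) and stood 0.94 (SE 0.0507) above control (adjusted p = 3.4e-12, edgeR). Both HAI genes therefore had the same order, acetate above control above TGF-β1, with a smaller span in SPINT2.

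A second gene in the annotation, AC011479.1, runs on the same strand and shares 3464 bases with SPINT2, joining it to the neighbouring C19orf33. Its counts were 45.4% to 47.2% of those of SPINT2 in the acetate libraries, 72.4% to 77.8% in the TGF-β1 libraries and 64.4% to 68.8% in the control libraries. Reads in the shared stretch could be given to either gene. On its own AC011479.1 had log2 fold changes of -0.89 for TGF-β1 against control, 1.31 for acetate against TGF-β1 and 0.40 for acetate against control, all called by edgeR. With its counts added to SPINT2, a setting chosen after seeing the data, the 3 values of SPINT2 were -0.98, 1.74 and 0.74, with edgeR adjusted p-values of 9.5e-12, 5.8e-13 and 1.3e-10. The direction and the call held in all 3 comparisons, and each size was smaller. PPP1R14A, a phosphatase inhibitor gene, overlaps SPINT2 on the opposite strand and had at most 262 counts in any library.

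EPCAM, on chromosome 2 (47345158 to 47387601, plus strand; ENSG00000119888.10), came nearest to its control level with acetate among the 4 genes that TGF-β1 lowered. Levels were 5.39, 5.43, 6.12 and 5.56 CPM in the acetate libraries, 1.23, 1.11, 0.750 and 1.22 CPM in the TGF-β1 libraries and 4.59, 4.41, 3.99 and 3.91 CPM in the control libraries. All TGF-β1 libraries were far below the rest, and the lowest acetate library still exceeded the highest control library. EPCAM fell by 1.98 (SE 0.142) in log2 with TGF-β1 against control (adjusted p = 2.4e-09, edgeR) and rose by 2.41 (SE 0.138) with acetate against TGF-β1 (adjusted p = 4.9e-10, edgeR). The acetate group lay above control by 0.41 (SE 0.104) in log2 (adjusted p = 0.0016, edgeR), or 1.33-fold in mean CPM.

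LSR, on chromosome 19 (35248330 to 35267964, plus strand; ENSG00000105699.16), differed from the other genes that TGF-β1 lowered in that acetate left it below control. Levels were 13.7, 12.6, 15.7 and 12.8 CPM in the acetate libraries, 8.24, 11.2, 9.04 and 9.82 CPM in the TGF-β1 libraries and 21.4, 22.9, 22.7 and 21.2 CPM in the control libraries. The groups did not overlap, but the acetate libraries sat nearer to the TGF-β1 libraries than to the control libraries. LSR fell by 1.21 (SE 0.0725) in log2 with TGF-β1 against control (adjusted p = 2.5e-10, edgeR). It rose by 0.54 (SE 0.0908) with acetate against TGF-β1 (adjusted p = 9.0e-05, edgeR) and was lower by 0.68 with acetate against control (log2 fold change -0.68, SE 0.0767, adjusted p = 1.6e-07, edgeR). Its RefSeq promoter window, chr19:35248752-35249051 (plus strand, GRCh38.p14, 64.3% G or C), is shown beside those of SPINT1. Like the second SPINT1 window it begins inside the gene, so the sequence before the gene's first annotated base was not searched.
LSR: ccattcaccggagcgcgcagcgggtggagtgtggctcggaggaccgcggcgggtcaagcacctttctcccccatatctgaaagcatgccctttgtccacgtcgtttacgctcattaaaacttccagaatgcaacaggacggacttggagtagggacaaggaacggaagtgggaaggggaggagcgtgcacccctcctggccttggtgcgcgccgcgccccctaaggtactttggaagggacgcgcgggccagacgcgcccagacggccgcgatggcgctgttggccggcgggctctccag
It held none of the 3 motifs searched, which says only that those letters are not in these 300 bases.

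**Figure D2:**
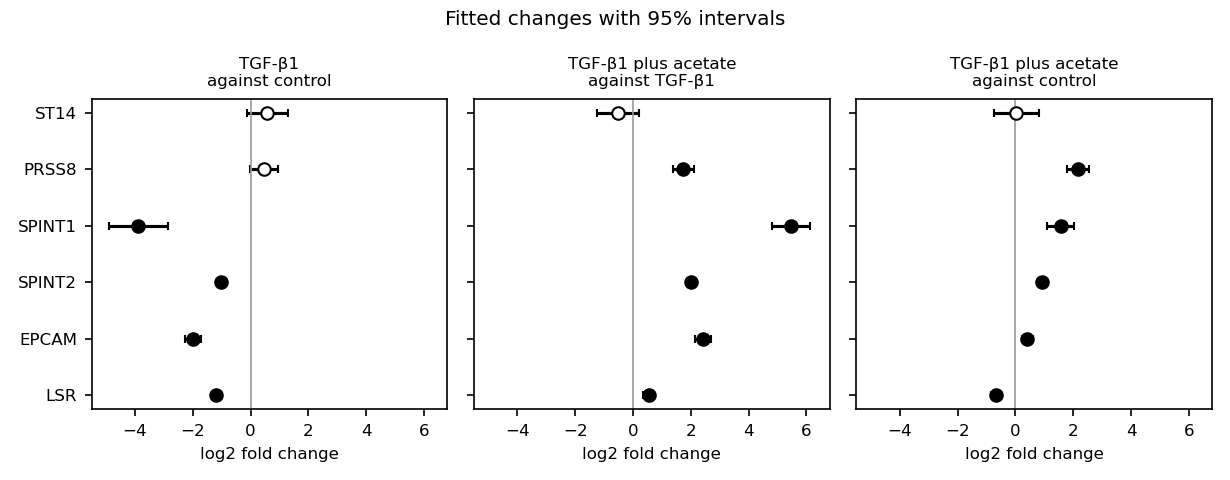
Log2 fold change (horizontal axis) of each of the 6 genes in the 3 comparisons with 95% intervals. Filled points passed an adjusted p below 0.05 in edgeR and open points did not. SPINT1 spans from -3.89 for TGF-β1 against control to 5.47 for acetate against TGF-β1, and LSR alone is called lower with acetate than in control.

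The share of the TGF-β1 difference taken back with acetate, on the log2 of group mean CPM, was 189% for SPINT2, 139.6% for SPINT1, 121% for EPCAM and 43.2% for LSR. A value above 100% means that the acetate group passed the control level. Both parts of this share use the same TGF-β1 libraries, so it is a description without a test, and it has no meaning for ST14 and PRSS8, which TGF-β1 did not detectably change.

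Levels can be set against each other only per length, here CPM per kilobase of the longest annotated transcript. In the acetate group the order of mean levels per kilobase was SPINT2 at 86.0, LSR at 5.53, EPCAM at 3.26, PRSS8 at 0.900, SPINT1 at 0.558 and ST14 at 0.0832. In the TGF-β1 group it was SPINT2 at 21.8, LSR at 3.86, EPCAM at 0.624, PRSS8 at 0.274, ST14 at 0.122 and SPINT1 at 0.0112, with the HAI-1 gene at the bottom. In the control group it was SPINT2 at 45.0, LSR at 8.89, EPCAM at 2.45, PRSS8 at 0.201, SPINT1 at 0.184 and ST14 at 0.0839. The control libraries of SPINT1 overlapped those of both its neighbours in this order, PRSS8 and ST14, so their ranks are not separated beyond the spread. The 2 inhibitors thus differed greatly in level, with HAI-2 transcript far above HAI-1 transcript in every group.

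Ratios within a library do not depend on how libraries are scaled to each other. They were taken as the log2 ratio of counts plus 0.5, and are given with no test. SPINT1 over ST14 was 2.43, 3.21, 2.75 and 1.82 with acetate, -1.72, -4.39, -3.17 and -4.35 with TGF-β1, and 1.82, 1.71, -0.82 and 0.80 in control. Every TGF-β1 library had fewer SPINT1 than ST14 counts, every acetate library had more, and control library S3 was the 1 control library with fewer. SPINT2 over ST14 averaged 10.1 ± 0.542 with acetate, 7.66 ± 0.591 with TGF-β1 and 9.2 ± 0.557 in control (SD, n = 4 each), and the acetate and control libraries overlapped. PRSS8 over ST14 averaged 2.54 ± 0.458 with acetate, 0.34 ± 0.604 with TGF-β1 and 0.40 ± 0.403 in control. For this protease pair the TGF-β1 and control libraries overlapped and the acetate libraries lay above both. SPINT2 over SPINT1 averaged 7.58 ± 0.104 with acetate, 11.1 ± 1.15 with TGF-β1 and 8.33 ± 0.678 in control, so the TGF-β1 libraries had the least SPINT1 transcript for their SPINT2 transcript. With 0 to 3 SPINT1 counts in the TGF-β1 libraries, their ratios that use SPINT1 depend strongly on the added 0.5, and the size is not well bounded. The spread of each ratio to ST14 includes the counting error of a gene with 7 to 30 counts.

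**Figure D3:**
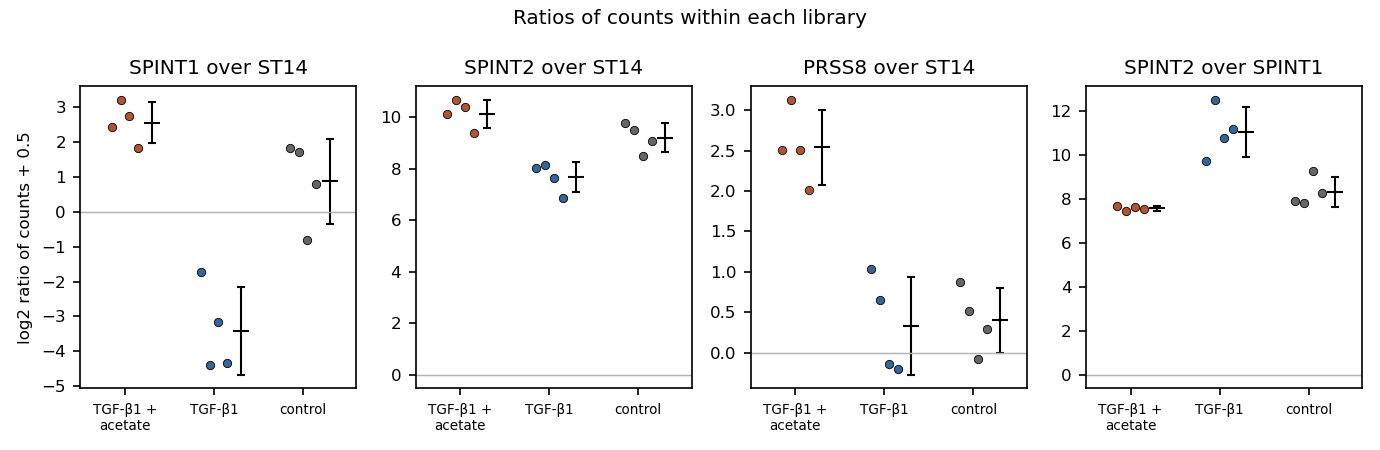
Log2 ratio of counts plus 0.5 (vertical axis) for 4 pairs of the genes in each of the 12 libraries, with mean and SD per group (n = 4). SPINT1 over ST14 lies below 0 in all TGF-β1 libraries and above 0 in all acetate libraries, and PRSS8 over ST14 is highest with acetate.

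The genes around these 6 were followed in 7 lists by role, drawn up with earlier results of these data known. Their counts and medians are descriptions beside the shares over all genes given above. A gene with few counts in either group can pass the filter through the other group alone, and the tallies include such calls. The median log2 fold change over all genes tested was 0.02, 0.03 and 0.02 in the order TGF-β1 against control, acetate against TGF-β1 and acetate against control. With plain library totals in place of TMM those medians were -0.09, 0.16 and 0.07.

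Few genes on the list drawn up as other membrane serine proteases were measurable. Of 21 listed, 5 could be tested for TGF-β1 against control (1 higher, 1 lower, 3 not passed), 4 for acetate against TGF-β1 (2 higher, 0 lower, 2 not passed) and 5 for acetate against control (2 higher, 0 lower, 3 not passed), all by edgeR. In both comparisons with acetate every fold change of the tested members was above 0, including those that did not pass. The list leaves out ST14 and PRSS8, which for acetate against TGF-β1 were at -0.53 (not passed) and 1.73 (called). TPSG1, a tryptase with a membrane anchor, averaged 3.75 ± 0.491 CPM with acetate and 2.04 ± 0.270 CPM with TGF-β1 (SD, n = 4 each), and rose by 0.89 in log2 (adjusted p = 2.0e-05, edgeR). PRSS27, which encodes marapsin, averaged 2.55 CPM with acetate and 1.53 CPM with TGF-β1, a rise of 0.74. Whether human marapsin is held at the membrane was not checked here. TMPRSS6, or matriptase-2, which restrains hepcidin in the liver, averaged 0.618 CPM with acetate, 0.429 CPM with TGF-β1 and 0.213 CPM in control. It was higher with TGF-β1 than in control by 0.99 in log2 (adjusted p = 0.0098, edgeR). That rests on 72 counts summed over the TGF-β1 libraries and 41 over the control libraries, and TMPRSS6 passed the filter there only through the TGF-β1 libraries.

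Of 11 secreted kallikreins listed, KLK4 and KLK6 could be followed in all groups. Both passed the filter on low counts only through the groups given TGF-β1, so a difference from control was fixed by the filter and their call there is no result. KLK6 had 112, 104, 166 and 115 counts with acetate, 19, 34, 48 and 43 with TGF-β1, and 1, 2, 1 and 1 in control. KLK4 had 42, 25, 29 and 28 counts with acetate, 13, 24, 24 and 13 with TGF-β1, and 0, 1, 0 and 0 in control. With 5 control counts or fewer, the size of these differences from control is not well bounded, and no fold is given. Between the groups given TGF-β1, KLK6 was higher with acetate by 1.86 in log2 without overlap (adjusted p = 9.8e-07, edgeR), and KLK4 by 0.82 with overlapping groups (adjusted p = 0.023, edgeR). KLK10, tested for acetate against TGF-β1 alone, had 23, 21, 23 and 16 counts with acetate and 1, 0, 1 and 2 with TGF-β1, and it likewise passed the filter through its acetate libraries.

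Other inhibitors went both ways. Of 18 listed, 11 were tested, with 5 higher and 4 lower for TGF-β1 against control, 7 higher and 1 lower for acetate against TGF-β1, and 7 higher and 3 lower for acetate against control. SERPINE2, or protease nexin-1, which inhibits prostasin as well as urokinase and thrombin, averaged 682 ± 9.79 CPM with acetate, 617 ± 6.43 CPM with TGF-β1 and 48.9 ± 1.91 CPM in control. It rose by 3.66 in log2 with TGF-β1 against control (adjusted p = 8.5e-20, edgeR), the opposite direction to both HAI genes. SLPI, an inhibitor of leukocyte elastase secreted by epithelia, averaged 0.429 CPM with acetate, 0.0949 CPM with TGF-β1 and 9.28 CPM in control, and its acetate libraries stayed far below control. With 2, 3, 5 and 6 counts in the TGF-β1 libraries, SLPI passed the filter for TGF-β1 against control only through control. Its call there is therefore no result by itself. SERPINA5, the protein C inhibitor, followed the order of SPINT1, with 3.37 CPM with acetate, 0.232 CPM with TGF-β1 and 0.787 CPM in control. It rose by 3.85 in log2 with acetate against TGF-β1 (adjusted p = 7.0e-10, edgeR). With 13, 4, 9 and 13 counts in the TGF-β1 libraries, SERPINA5 passed the filter there only through its acetate libraries, so that call is no result by itself. TFPI, a Kunitz inhibitor of coagulation, averaged 70.9 CPM with acetate, 27.8 CPM with TGF-β1 and 111 CPM in control, the order seen for LSR.

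Of 13 substrates and downstream receptors of these proteases, 9 were tested, with 3 higher and 5 lower for TGF-β1 against control, 8 higher and 1 lower for acetate against TGF-β1, and 5 higher and 3 lower for acetate against control. Their median log2 fold changes were -0.57, 0.94 and 0.19. CDCP1, a membrane protein that matriptase can cleave, averaged 42.0 ± 0.573 CPM with acetate, 10.2 ± 0.253 CPM with TGF-β1 and 25.7 ± 1.06 CPM in control, an order like that of the HAI genes. MST1R, the receptor for macrophage-stimulating protein, averaged 6.21 CPM with acetate, 0.884 CPM with TGF-β1 and 8.55 CPM in control. F2RL1, the receptor PAR2, which serine proteases activate by cleavage, averaged 567 CPM with acetate, 251 CPM with TGF-β1 and 145 CPM in control, and rose in all 3 comparisons. PLAU, the protease urokinase, whose precursor matriptase can activate, averaged 458 ± 15.95 CPM with acetate, 552 ± 46.2 CPM with TGF-β1 and 135 CPM in control. It was above control by 2.04 in log2 with TGF-β1 and by 1.76 with acetate (adjusted p = 2.3e-15 and 1.4e-16, edgeR). PLAU was also the 1 gene of the list called lower with acetate than with TGF-β1 (log2 fold change -0.26, adjusted p = 2.2e-04, edgeR). SCNN1A, the alpha subunit of the epithelial sodium channel that prostasin helps to activate, was picked after its values were seen. It averaged 2.26 CPM with acetate, 1.20 CPM with TGF-β1 and 10.1 CPM in control.

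Among 15 relatives, partners and processing proteases of EPCAM, 13 were tested, with 5 higher and 7 lower for TGF-β1 against control, 9 higher and 3 lower for acetate against TGF-β1, and 7 higher and 3 lower for acetate against control. CD9, a tetraspanin found with EPCAM in membranes, averaged 79.3 ± 5.37 CPM with acetate, 18.1 ± 1.87 CPM with TGF-β1 and 34.8 ± 1.51 CPM in control, the same order as EPCAM. CD44, an adhesion receptor for hyaluronan, averaged 637 CPM with acetate, 364 CPM with TGF-β1 and 399 CPM in control. FHL2, which binds the released EPCAM tail, rose by 0.90 in log2 with acetate against control (adjusted p = 8.2e-13, edgeR). Of the sheddases, ADAM10 was higher with TGF-β1 than in control by 0.70 in log2 (adjusted p = 1.0e-10, edgeR), whereas ADAM17, which cleaves the EPCAM ectodomain, fell by 0.57 (adjusted p = 6.5e-10, edgeR). CLDN7, the claudin that pairs with EPCAM, was picked after its values were seen. It averaged 0.379 CPM with acetate, 0.346 CPM with TGF-β1 and 1.08 CPM in control, and for acetate against TGF-β1 its log2 difference of 0.13 did not pass the test (adjusted p = 0.71, edgeR).

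Of 10 genes of tricellular and tight junctions, the setting of LSR, 8 were tested, with 1 higher and 5 lower for TGF-β1 against control, 7 higher and 1 lower for acetate against TGF-β1, and 3 higher and 4 lower for acetate against control. The medians were -1.02, 1.13 and -0.03. MARVELD2, the tricellulin that LSR recruits, averaged 7.31 ± 0.804 CPM with acetate, 5.01 ± 0.560 CPM with TGF-β1 and 15.1 ± 0.720 CPM in control. That is the order of LSR, with the acetate group lower than control by 1.04 in log2 (log2 fold change -1.04, adjusted p = 6.8e-10, edgeR). OCLN, or occludin, averaged 24.3 CPM with acetate, 7.72 CPM with TGF-β1 and 22.5 CPM in control. TJP3, a scaffold of tight junctions, fell by 5.08 in log2 with TGF-β1 against control (adjusted p = 6.2e-15, edgeR), to 0.220 CPM with TGF-β1 against 7.57 CPM in control. With 9, 9, 13 and 6 counts in the TGF-β1 libraries, TJP3 passed the filter there only through control, so that call is no result by itself. F11R, the junctional adhesion molecule JAM-A, went the other way, at 146 CPM with acetate, 73.0 CPM with TGF-β1 and 50.5 CPM in control. No relative of LSR in the angulin family (ILDR1, ILDR2) could be tested here.

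Regulators of epithelial surface genes completed the lists. Of 16 listed, 14 were tested, with 4 higher and 7 lower for TGF-β1 against control, 8 higher and 4 lower for acetate against TGF-β1, and 5 higher and 6 lower for acetate against control. EHF, an ETS factor of epithelia, averaged 11.9 ± 1.73 CPM with acetate, 2.63 ± 0.291 CPM with TGF-β1 and 41.2 ± 1.65 CPM in control. ELF3, its relative, averaged 103 CPM with acetate, 36.1 CPM with TGF-β1 and 188 CPM in control. KLF5, an epithelial Krüppel-like factor, averaged 61.6 CPM with acetate, 21.5 CPM with TGF-β1 and 75.0 CPM in control. KLF4 averaged 5.78 CPM with acetate, 4.62 CPM with TGF-β1 and 18.96 CPM in control, so its rise of 0.33 in log2 with acetate against TGF-β1 (adjusted p = 0.0068, edgeR) left it far from control. All 4 had the order of LSR, with acetate between TGF-β1 and control. SNAI1, GRHL1, SNAI2, ZEB1, ZEB2, TWIST1 and OVOL2 were picked after their values were seen. The repressor SNAI1 averaged 8.94 CPM with acetate, 22.4 CPM with TGF-β1 and 2.45 CPM in control. The Grainyhead-like factor GRHL1 averaged 2.33 CPM with acetate, 0.812 CPM with TGF-β1 and 0.437 CPM in control. Others of this list did not all follow SNAI1. For acetate against TGF-β1, SNAI2 and ZEB1 were lower (log2 fold change -0.29 and -0.33, adjusted p = 0.0023 and 4.2e-06, edgeR). ZEB2 was higher (0.74, adjusted p = 1.3e-06, edgeR), and TWIST1 at 0.196 did not pass (adjusted p = 0.2, edgeR). OVOL2 was lower (-0.48, adjusted p = 1.1e-05, edgeR). GRHL2 and OVOL1 were not analysed here.

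**Figure D4:**
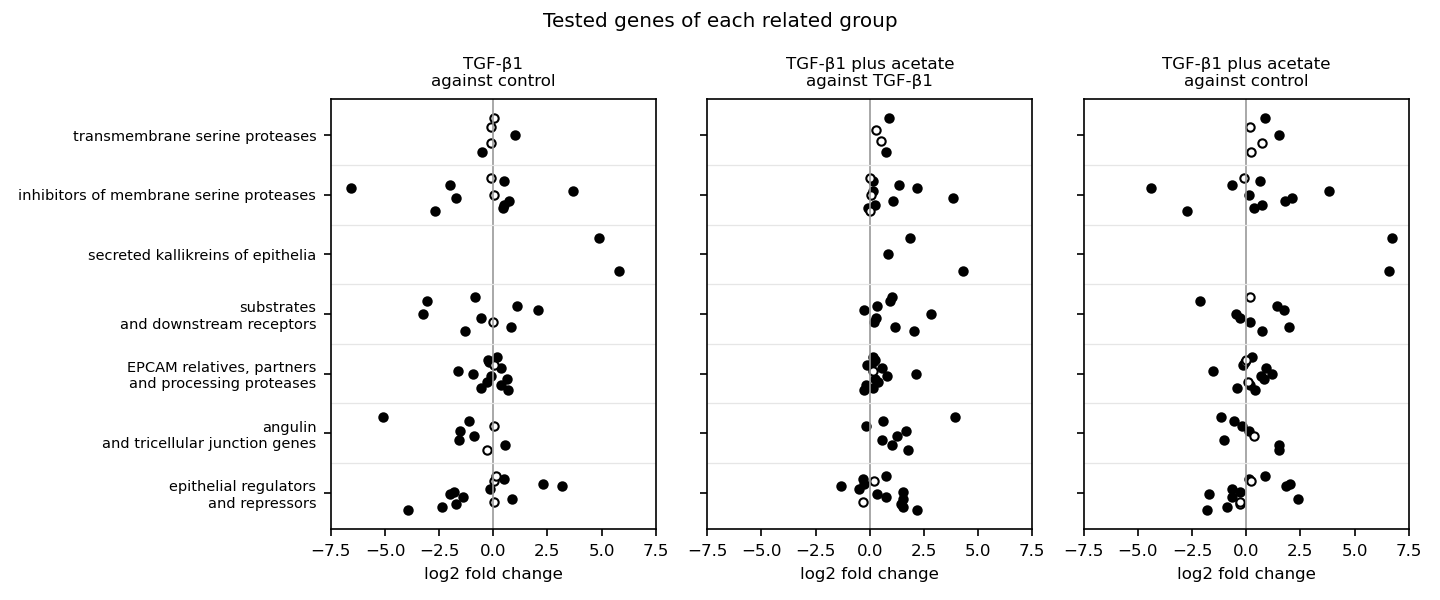
Log2 fold change (horizontal axis) of each tested gene in the 7 lists (rows) for the 3 comparisons. Filled points passed an adjusted p below 0.05 in edgeR and open points did not, and height within a row only separates the points. In the substrate and junction rows, 8 of 9 and 7 of 8 genes are called higher with acetate than with TGF-β1, beside 33.3% of all genes tested. The junction tally includes TJP3, which passed the filter on low counts there only through its acetate libraries. Other rows are more mixed, with 9 higher and 3 lower in the EPCAM row and 8 higher and 4 lower in the regulator row.

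The genes whose profile lay nearest to each of the 6 were found by the root mean square distance between log2 CPM values over the 12 libraries, each gene centred on its own mean, among 13354 protein-coding genes whose mean over the 12 libraries was at or above 1 CPM. Small distances were found for SPINT2 and LSR, and larger ones for the low genes. For SPINT2 they were IFI30 at 0.0947 and NKD2 at 0.0968, where the median of all candidates was 0.872. For LSR they were LTBR at 0.0826 and RP11-162P23.2 at 0.0944, with a median of 0.560. LTBR, the lymphotoxin beta receptor, averaged 76.9 ± 3.29 CPM with acetate, 56.1 ± 4.15 CPM with TGF-β1 and 127 ± 3.16 CPM in control. For EPCAM they were RGS9 at 0.154 and ANK3 at 0.179, with a median of 1.09, and for PRSS8 GOLGA7B at 0.169 and SLC1A1 at 0.177, with a median of 0.947. ANK3, the gene of the membrane scaffold ankyrin-G, averaged 7.08 CPM with acetate, 1.08 CPM with TGF-β1 and 4.83 CPM in control. For SPINT1 they were BCL2L15 at 0.454 and TNFSF15 at 0.541, with a median of 1.95. For ST14 the nearest genes, KRT85 at 0.367 and ZNF286B at 0.379, stood against a median of 0.561. GOLGA7B and SLC1A1 were called higher for TGF-β1 against control, by 0.37 and 0.42 in log2 (adjusted p = 0.0057 and 0.011, edgeR), where PRSS8 itself at 0.45 was not. The call of SLC1A1 rested on control library S2, without which it was 0.29 with an adjusted p of 0.059 by edgeR. Likeness over these 12 libraries mostly follows the 3 group means, and it is a description.

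**Figure D5:**
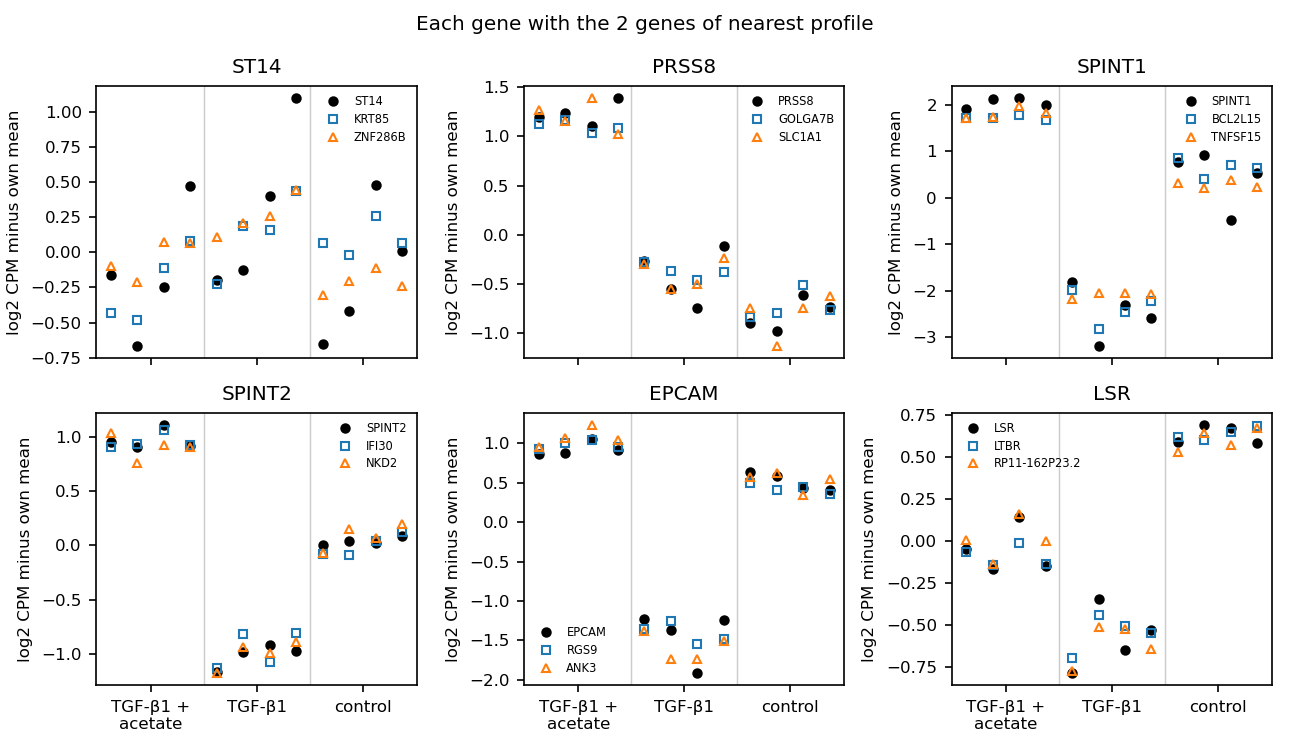
Log2 CPM minus the gene's own mean (vertical axis) in the 12 libraries, grouped by condition, for each of the 6 genes (filled black) and the 2 genes of nearest profile (open). Libraries within a group have no order. SPINT2, EPCAM and LSR lie close to their neighbours, and ST14 varies as much within groups as between them.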

How the data were processed

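Total RNA of 12 A549 libraries was made into stranded libraries after ribosomal RNA removal and sequenced as paired reads of 75 bp, per the labels' protocols. The submitters' processing notes name bcl2fastq, HISAT2, limma and the build hg38; their versions, the counting tool with its strand setting, and the authors' gene annotation are not stated in the labels or files. The authors deposited 2 tables of raw counts per gene (control with TGF-β1, and TGF-β1 with TGF-β1 plus acetate), each with a log2 fold change, p-value and q-value of the authors' own comparison. In the deposited tables the TGF-β1 columns stand in both tables with the same counts. Another 32 columns of values per library were not used. No label names a column, so sets of 4 columns were placed in groups by the tables that hold them, and every comparison rests on the names of those tables.

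Counts were tested in R 4.3.3 with edgeR 4.0.16 (filterByExpr with a minimum count of 10 and a minimum total of 15, TMM, glmQLFit and glmQLFTest, two-sided, Benjamini-Hochberg over all genes tested, threshold 0.05). The tests of TGF-β1 against control and of acetate against TGF-β1 each used the table holding both groups. Acetate was compared with control in a joint fit of the 12 libraries over 23771 shared genes, whose TMM-adjusted totals also give the CPM levels. Intervals for summed counts are exact (Clopper-Pearson, 95%). The code was tested on simulated data. Positions and lengths come from GENCODE release 29, whose identifiers and versions match all 6 genes. Pairs of libraries of a group differed by a chi-square of 3.95 to 17.3 per degree of freedom, so none was a duplicate.

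The 6 genes and the lists were chosen with earlier results of these data known, and no p-value was adjusted over a list alone. Named list genes are the 2 of smallest p per list and comparison that passed without overlap of the groups, plus those said to be picked after their values were seen. Nearest profiles are the 2 per gene, and not all named genes are described in every comparison. Alternatives were DESeq2 1.42.0, limma-voom (limma 3.58.1), library totals, upper-quartile factors, no filter, a joint fit, leaving out each library, and SPINT2 with the overlapping gene added. Protein sequences were not used here.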

Additional observations from a re-analysis of the deposited data

Results flagged for a closer look

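In 135 sets of 4 libraries (each named gene in each group), the highest or lowest library was compared with its nearest neighbour by Dixon's ratio of that gap to the whole range, with a critical value of 0.829 for 4 samples. Chance alone marks about 1 in 20 such sets, and 6 were marked here. None was a set of ST14, PRSS8, SPINT1, SPINT2, EPCAM or LSR. In the acetate group KLK4 stood at 1.167 CPM in library S22, where the next library had 0.6854 CPM. CD9 stood at 87.23 CPM in S24, where the next had 77.2 CPM, and KLF4 at 6.192 CPM in S24, where the next had 5.678 CPM. KLF5 was lowest in S22 at 59.06 CPM, where the next had 62.28 CPM. In the control group SERPINE2 stood at 51.7 CPM in S1, where the next library had 48.19 CPM, and KLK4 at 0.02041 CPM in S2, a single count where the other control libraries had 0. In the comparisons that chose these genes by the naming rule, each call was kept when any single library was left out. For KLK4 these were the comparisons against control, where the filter fixed the difference, so the kept call tells nothing.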

How the results depend on the processing

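All calls of the 6 genes, and all uncalled values, stayed on their side of the 0.05 threshold under every alternative run. Over those alternatives SPINT1 for TGF-β1 against control ran from -4.44 to -3.57 in log2, EPCAM from -2.09 to -1.82, LSR from -1.31 to -1.14 and SPINT2 from -1.14 to -0.98. For acetate against TGF-β1, SPINT1 ran from 5.13 to 5.99 and PRSS8 from 1.59 to 1.86. The sign of ST14 for acetate against control was not fixed: it was 0.03 with all libraries in edgeR, -0.0077 with DESeq2 and between -0.28 and 0.28 when single libraries were left out, with adjusted p-values of 0.57 to 0.99. The sign of KRT85 for TGF-β1 against control, likewise not called, was negative with library totals (-0.033) and without TGF-β1 library S18 (-0.032), and its values with single libraries left out ran from -0.032 to 0.18. Calls of KRT85, ZNF286B and SLC1A1 were lost or gained under some settings; the cause was not tested. The count of all genes called for TGF-β1 against control was 14742, with 14240 to 15205 over the alternatives, for acetate against TGF-β1 14229, with 13523 to 14583, and for acetate against control 16051, with 15463 to 16184. Where a library was left out, its group kept 3. No paired analysis was possible because the count columns carry no replicate numbers. Depth limits ST14, PRSS8 and SPINT1 most, at under 100 counts in every library.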

Other observations

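Genes that lie inside or against the 6 did not all move with them. AC002128.1, annotated inside an intron of LSR on the same strand, had 99 to 113 counts with acetate, 128 to 182 with TGF-β1 and 88 to 107 in control. It was higher by 0.76 in log2 with TGF-β1 against control (adjusted p = 9.1e-05, edgeR), where LSR was lower, and lower with acetate against TGF-β1 (log2 fold change -0.42, adjusted p = 0.0082, edgeR), where LSR was higher. AC002128.2, antisense to LSR, had 6 to 11 counts with acetate, 0 to 6 with TGF-β1 and 9 to 19 in control. PPP1R14A, antisense to SPINT2, had 190 to 262 counts with acetate, 73 to 119 with TGF-β1 and 117 to 150 in control. Its mean CPM had the order of SPINT2, but its TGF-β1 and control libraries overlapped. There its log2 fold change was -0.30 (adjusted p = 0.036, edgeR). C19orf33, downstream of SPINT2, had log2 fold changes of -0.83 for TGF-β1 against control, 0.45 for acetate against TGF-β1 and -0.40 for acetate against control, so with acetate it was lower than control where SPINT2 was higher. Reads shared between these overlapping genes could not be separated from the deposited counts.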
